A study of Homo sapiens with 12 samples.

Results

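DNA replication and G1/S genes encode the machinery that commits a cell to S phase and copies its DNA, and 52 of them were followed through 6 hormone conditions. They were taken from the deposited gene count table by symbol, as a list of named genes, and are 52 of 59410 genes there. All 52 passed the filter on low counts, among 23375 genes tested. The measurement was PRO-seq, a nuclear run-on in which polymerases already engaged on DNA add labelled nucleotides, so that the sequenced RNA reports ongoing transcription and not stored mRNA. It was made in T47D, a human breast cancer line that carries the estrogen receptor and depends on estrogen for growth.

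The 12 libraries fall into 6 groups of 2, numbered 3 and 4 in each group. Starved vehicle cells had been kept without hormones for 3 days and then received DMSO at 0.1% by volume, and starved estradiol cells had the same starvation followed by 1 nM beta estradiol. Complete vehicle cells stayed in medium with fetal bovine serum and received 0.1% DMSO, and the remaining groups stayed in that medium and received fulvestrant, raloxifene or tamoxifen, each at 100 nM. Every treatment lasted 1 h. All groups are the same line, so the values describe 1 cell line. No label states that 2 libraries of a group are separate cultures, so a p-value sets a difference against library-to-library spread that may be only technical.

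Passage into S phase is controlled by the E2F transcription factors, which the retinoblastoma family of pocket proteins holds back until cyclin-dependent kinases phosphorylate those proteins. Freed activator E2Fs then drive transcription of cyclin E, of the MCM helicase and its loaders, of the polymerases and of the enzymes that make deoxynucleotides. In luminal breast cancer cells estrogen feeds into this switch upstream, through MYC and cyclin D, and its withdrawal is known to hold cells in G1.

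Depth per library lay between 3682311 counts (raloxifene library 4) and 7856803 (raloxifene library 3). Luminal markers were counted in every library. ESR1 read 1014 to 1988 and KRT8 255 to 365 counts per 1000000 after library scaling (CPM). EPCAM was the lowest of them, at 31.7 to 36.4 CPM. The basal keratins KRT5 and KRT14 and the leukocyte gene PTPRC never passed 0.547 CPM. Some other markers of the non-luminal sets read higher, with TP63 at 3.63 to 8.05, CD68 at 17.2 to 25.7 and COL1A1 at 15.9 to 23.8 CPM. GREB1, a direct estrogen receptor target used to check the labels, stood at 293 and 327 CPM in starved vehicle, 1402 and 1478 CPM after estradiol and 1259 and 1346 CPM in complete vehicle.

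Nascent transcription of the replication genes was lower as a body in starved cells than in complete medium. Summed over the 52 genes, they took 2524 and 2580 of every 1000000 counts in starved vehicle against 3536 and 3554 in complete vehicle, so the groups did not overlap. The fitted log2 fold change was negative for all 52, with a median of -0.52 where the median over all tested genes was 0.01, and a range from -0.96 for CDT1 to -0.06 for E2F3. With edgeR's quasi-likelihood test and Benjamini-Hochberg adjustment over all tested genes at a threshold of 0.05, 44 of the 52 fell, none rose and 8 did not pass. Over all tested genes 9.67% were called lower. Both starved libraries lay below both complete libraries for 49 members, an arrangement seen in 29.0% of all tested genes. In bulk libraries fewer cells of a type and less RNA per cell cannot be told apart, so a smaller fraction of cells in S phase and weaker transcription within each cell would read the same here. The 9 luminal markers summed to 4018 and 4030 CPM in starved vehicle against 5839 and 5918 CPM in complete vehicle, a difference carried by ESR1 and the estrogen-responsive PGR, since the other 7 summed to 2241 and 2303 CPM against 2264 and 2321 CPM. The 9 blood, endothelial and stromal markers summed to 51.0 and 55.5 CPM against 43.3 and 46.2 CPM. Their part in the result was not tested.

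**Figure D1:**
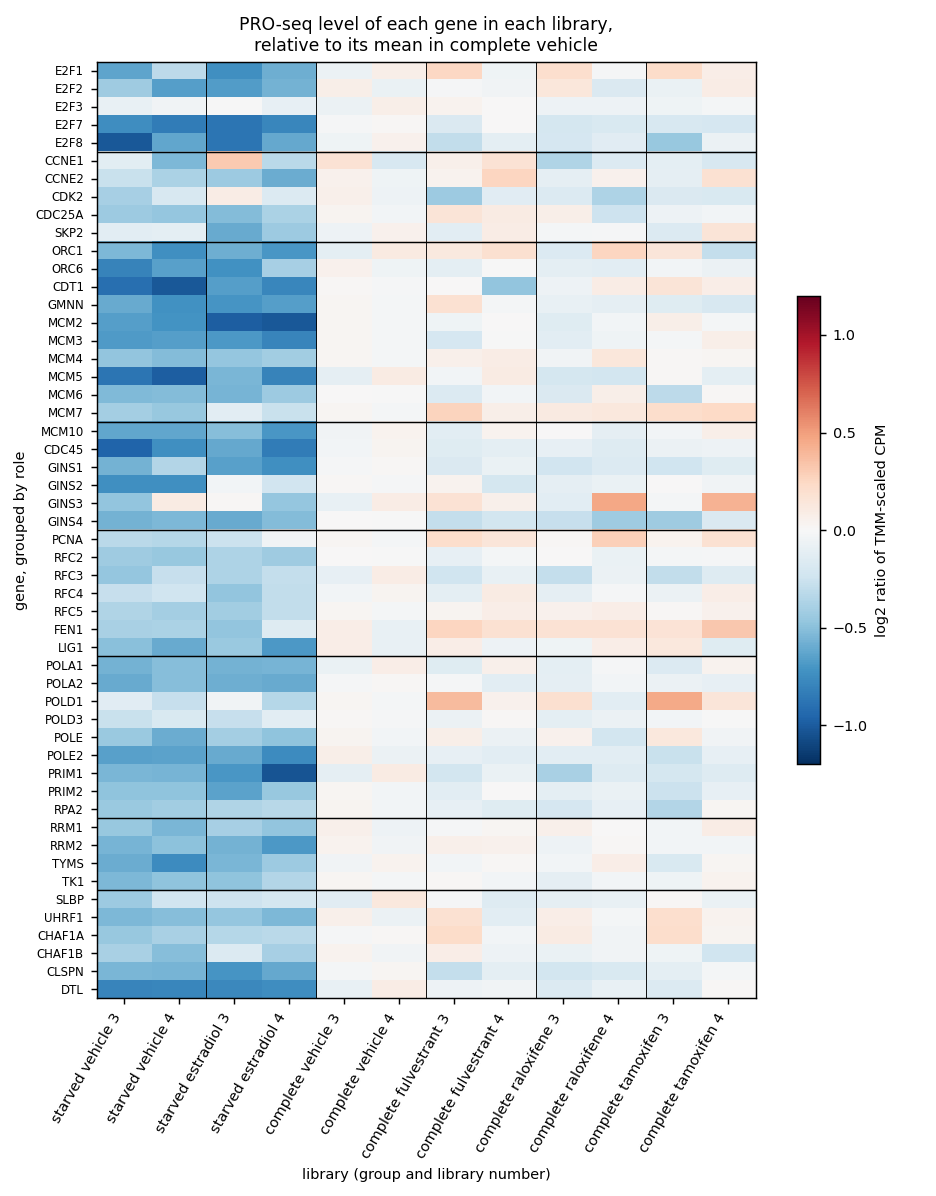
Heat map of the 52 genes (rows, grouped by role) in the 12 libraries (columns), coloured by the log2 ratio of TMM-scaled CPM to the gene's mean in complete vehicle. The 4 starved libraries on the left are blue in nearly all rows, with library medians from -0.52 to -0.47, while the 6 drug-treated libraries have medians from -0.11 to -0.01.

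Of the 5 E2F genes, 4 fell. E2F7, an atypical E2F that represses E2F targets, read 66.4 and 62.1 CPM in starved vehicle against 110 and 112 CPM in complete vehicle, a log2 fold change of -0.78 ± 0.075 (SE; adjusted p = 1.4e-07). E2F8, the second atypical repressor, went from 30.2 and 32.4 CPM down to 15.5 and 20.3 CPM (-0.81 ± 0.148, adjusted p = 0.00045). Among the activator E2Fs, E2F2 stood at 22.1 and 18.7 CPM against 31.2 and 28.1 CPM (-0.54 ± 0.128, adjusted p = 0.0043). In each of these genes the lowest complete library lay above the highest starved library. The E2F2 call was lost without starved vehicle library 4 (-0.41, adjusted p = 0.097) or complete vehicle library 3 (-0.45, adjusted p = 0.11). E2F1 had a log2 fold change of -0.46 (adjusted p = 0.015), which was lost without starved vehicle library 3 (-0.30, adjusted p = 0.25), complete vehicle library 3 (-0.52, adjusted p = 0.051) or complete vehicle library 4 (-0.38, adjusted p = 0.14). E2F3, the remaining activator, was the flattest of all 52 genes, at 124 and 128 CPM in starved and 125 and 138 CPM in complete medium (-0.06 ± 0.064, adjusted p = 0.58), and its groups overlapped.

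Cyclin E and CDK2, the kinase pair that fires the G1/S transition, and their regulators had the smallest median, -0.32, and 2 of 5 genes called. CDC25A, the phosphatase that removes inhibitory phosphates from CDK2, read 32.9 and 32.3 CPM in starved against 45.5 and 43.7 CPM in complete medium (-0.46 ± 0.104, adjusted p = 0.0032), and the call was lost without complete vehicle library 3 (-0.41, adjusted p = 0.063). CCNE2, a cyclin E gene, read 44.3 and 41.1 CPM against 55.2 and 51.6 CPM (-0.32 ± 0.108, adjusted p = 0.041), a call lost when any of the 4 libraries compared was left out (-0.37 to -0.25, adjusted p from 0.098 to 0.31). The other cyclin E gene, CCNE1, had a log2 fold change of -0.33 (adjusted p = 0.31) from 8.43 to 13.8 CPM across the 4 libraries. CDK2 itself read 12.3 and 14.2 CPM against 16.9 and 15.6 CPM, with no overlap but no call (-0.30 ± 0.155, adjusted p = 0.20). SKP2, the substrate receptor of the ubiquitin ligase that removes the CDK inhibitor CDKN1B, read 52.9 and 53.3 CPM against 55.5 and 60.1 CPM (-0.12, adjusted p = 0.50). For CCNE1 and CDK2 the list's median fall of -0.52 lies inside the 95% interval.

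Origin licensing, the loading of the MCM2 to MCM7 ring onto origins during G1, is the largest role of the list, and 10 of its 10 genes fell, with a median log2 fold change of -0.67. CDT1, which brings the ring to the origin, had the largest fall of the list, from 30.7 and 30.0 CPM in complete to 16.2 and 15.0 CPM in starved medium (-0.96 ± 0.140, adjusted p = 3.6e-05). MCM5 read 22.1 and 20.5 CPM in starved against 37.8 and 43.5 CPM in complete medium (-0.92 ± 0.116, adjusted p = 5.7e-06). MCM2 read 33.4 and 32.1 CPM against 53.8 and 51.8 CPM (-0.69 ± 0.090, adjusted p = 9.1e-06). For all 3 genes the libraries of a group lay close together and far from the other group. MCM3 was similar, at 41.6 and 42.0 CPM against 67.7 and 65.2 CPM (-0.67 ± 0.088, adjusted p = 9.4e-06). The other ring subunits MCM4, MCM6 and MCM7 had log2 fold changes from -0.52 to -0.43. GMNN, the inhibitor that binds CDT1 after S phase has begun, fell as well (-0.66, adjusted p = 0.00027), as did the origin recognition subunits ORC1 (-0.61, adjusted p = 0.013) and ORC6 (-0.73, adjusted p = 0.0029). The ORC1 call was lost without starved vehicle library 4 (-0.50, adjusted p = 0.14) or complete vehicle library 4 (-0.50, adjusted p = 0.15). The ORC6 call was lost without starved vehicle library 3 (-0.64, adjusted p = 0.051) or complete vehicle library 3 (-0.65, adjusted p = 0.058), and without the latter the MCM7 fall of -0.40 missed the threshold at an adjusted p of 0.053.

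Of the 6 genes that turn the loaded ring into an active helicase, 5 fell, with a median of -0.59. CDC45, which joins the ring together with the GINS complex, read 33.1 and 38.8 CPM in starved against 63.1 and 66.0 CPM in complete medium (-0.84 ± 0.094, adjusted p = 1.3e-06). GINS2 read 34.2 and 34.2 CPM against 57.6 and 56.3 CPM (-0.74 ± 0.099, adjusted p = 1.3e-05). MCM10, a helicase activator, read 48.3 and 48.4 CPM against 72.3 and 76.5 CPM (-0.62 ± 0.087, adjusted p = 2.5e-05). In each, the starved libraries stood clearly apart below the complete ones. GINS1 (-0.45) and GINS4 (-0.56) passed the test too, while GINS3, with 7.41 to 11.0 CPM across the 4 libraries and overlapping groups, did not (-0.16, adjusted p = 0.73).

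The clamp, the clamp loader and the lagging-strand enzymes gave 5 called of 7 and a smaller median of -0.38. LIG1, the ligase that seals Okazaki fragments, read 40.3 and 37.5 CPM in starved against 60.4 and 53.7 CPM in complete medium (-0.56 ± 0.109, adjusted p = 0.00083). RFC2 of the clamp loader read 48.7 and 48.0 CPM against 65.9 and 65.4 CPM (-0.44 ± 0.078, adjusted p = 0.00029). RFC5 of the same complex read 45.2 and 43.7 CPM against 59.1 and 56.9 CPM (-0.38 ± 0.082, adjusted p = 0.0019). None of these overlapped between groups, although the RFC5 call was lost without complete vehicle library 3 (-0.34, adjusted p = 0.052). PCNA, the sliding clamp that is often used as a proliferation marker, fell by only 0.33 on the log2 scale (adjusted p = 0.036), from 41.7 and 40.3 CPM to 32.7 and 32.4 CPM, and lost the call when any 1 of these libraries was left out (-0.35 to -0.29, adjusted p from 0.12 to 0.25). The RFC3 change of -0.36 was lost without starved vehicle library 3 (-0.26, adjusted p = 0.16) or complete vehicle library 4 (-0.26, adjusted p = 0.15). RFC4 (-0.26, adjusted p = 0.058) and the flap nuclease FEN1 (-0.39, adjusted p = 0.063) did not pass, although FEN1 did in a fit of the 4 libraries compared (-0.40, adjusted p = 0.041).

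Among the polymerases, the primase and the single-strand binding subunit RPA2, 8 of 9 genes fell, with a median of -0.52. POLA2, the regulatory subunit of the polymerase that lays down primers, read 101 and 108 CPM in starved against 152 and 155 CPM in complete medium (-0.56 ± 0.063, adjusted p = 1.5e-06). Its catalytic partner POLA1 read 189 and 197 CPM against 265 and 296 CPM (-0.54 ± 0.076, adjusted p = 2.3e-05). POLE2, of the leading-strand polymerase, read 31.5 and 31.7 CPM against 52 and 47.2 CPM (-0.66 ± 0.097, adjusted p = 4.2e-05). All 3 were lower in both starved libraries than in both complete ones. POLE (-0.52) and the primase subunits PRIM1 (-0.55) and PRIM2 (-0.49) fell by similar amounts. The lagging-strand polymerase moved less: POLD3 had a log2 fold change of -0.23 (adjusted p = 0.022) and POLD1 of -0.21 (adjusted p = 0.40). The POLD3 call and that of RPA2 (-0.43, adjusted p = 0.015) were lost when any of the 4 libraries compared was left out, at -0.25 to -0.17 for POLD3 (adjusted p from 0.066 to 0.24) and -0.45 to -0.38 for RPA2 (adjusted p from 0.059 to 0.15).

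All 4 genes of nucleotide supply fell, with a median of -0.52. RRM2, the regulated subunit of ribonucleotide reductase, read 164 and 172 CPM in starved against 249 and 235 CPM in complete medium (-0.53 ± 0.059, adjusted p = 1.1e-06). TK1, the salvage kinase for thymidine, read 50.4 and 52.5 CPM against 74.6 and 72.1 CPM (-0.52 ± 0.079, adjusted p = 6.3e-05). TYMS, which makes thymidylate from deoxyuridylate, read 21.8 and 19.6 CPM against 32.1 and 34.0 CPM (-0.67 ± 0.115, adjusted p = 0.00023). The groups were separate in each, and RRM1, the large reductase subunit, fell by 0.50 on the log2 scale.

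The 6 genes for chromatin assembly, histone mRNA and checkpoint control also all fell, with a median of -0.49. DTL, the adaptor through which a ubiquitin ligase destroys CDT1 during S phase, had the smallest adjusted p of the 52 genes, with 87.7 and 87.9 CPM in starved against 142 and 161 CPM in complete medium (-0.78 ± 0.074, adjusted p = 1.2e-07). UHRF1, which recognises hemimethylated DNA behind the fork, read 74.9 and 76.6 CPM against 114 and 104 CPM (-0.53 ± 0.090, adjusted p = 0.00019). CLSPN, the fork protein that relays the checkpoint signal to CHEK1, read 29.2 and 28.9 CPM against 41.9 and 43.3 CPM (-0.55 ± 0.098, adjusted p = 0.00032). Starved and complete libraries did not overlap in these genes. CHAF1A (-0.42) and CHAF1B (-0.45), subunits of the histone chaperone that follows the fork, and SLBP (-0.32), which binds the stem-loop of histone mRNA, passed with less margin. CHAF1A missed the threshold without starved vehicle library 3 (-0.38, adjusted p = 0.056) and CHAF1B without starved vehicle library 4 (-0.37, adjusted p = 0.083) or complete vehicle library 3 (-0.39, adjusted p = 0.091). SLBP missed it without starved vehicle library 3 (-0.22, adjusted p = 0.32) or complete vehicle library 4 (-0.19, adjusted p = 0.38).

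**Figure D2:**
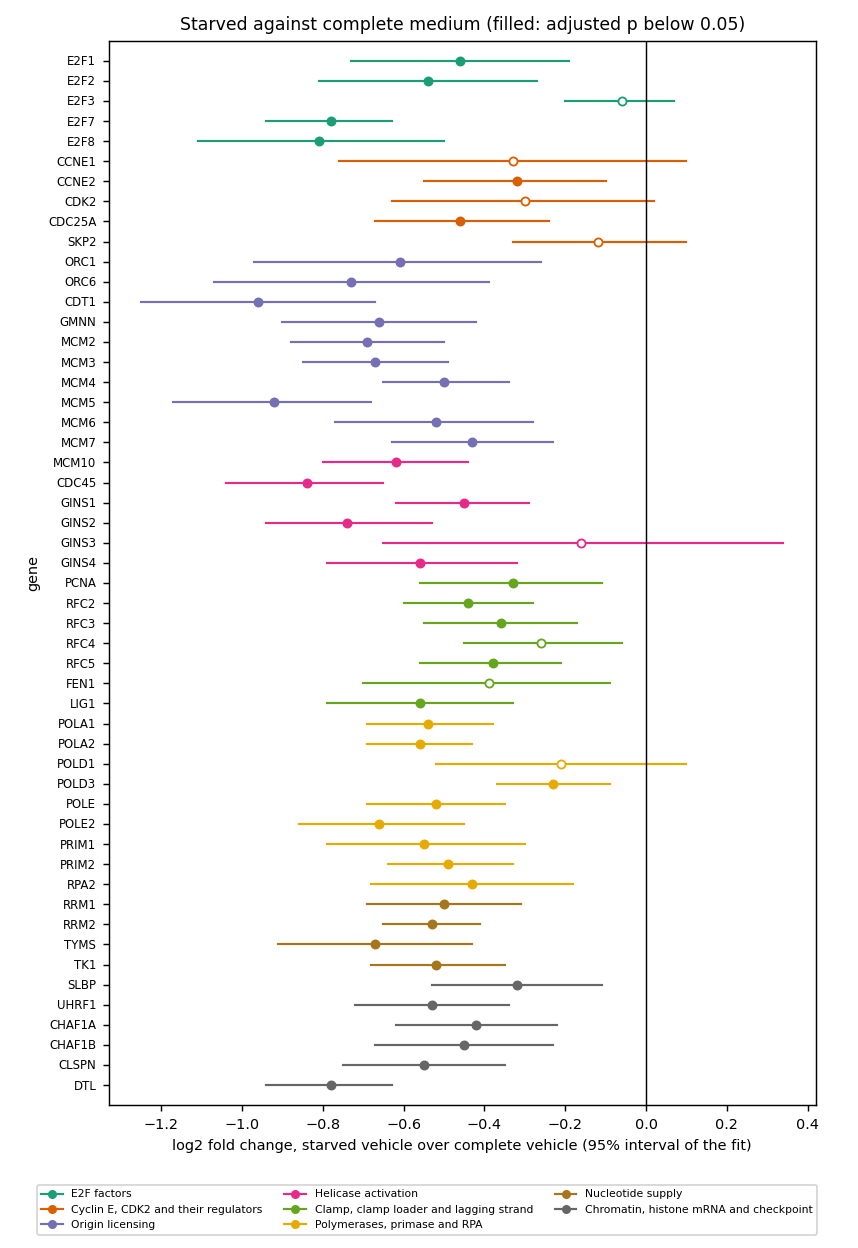
Log2 fold change of each of the 52 genes in starved vehicle over complete vehicle (points, coloured by role) with the 95% interval of the edgeR fit (lines), filled where the adjusted p is below 0.05. All 52 points lie left of 0 and the 10 licensing genes are all filled, while 3 of the 5 genes for cyclin E, CDK2 and their regulators are open.

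The size of the fall bore little relation to how strongly a gene was counted or how long it is. Across the 52 genes Spearman's rho between the starvation log2 fold change and the mean count was 0.06, and with the RefSeq span it was -0.05, both as descriptions of genes measured in the same libraries. The 26 members with more counts had a median log2 fold change of -0.51 and the 26 with fewer had -0.53, while the median standard error was 0.083 in the first set and 0.117 in the second. Levels compared per length spread widely in complete vehicle. TK1 led with 5.6 CPM per kb of gene span, followed by CDT1 at 5.54 and MCM7 at 5.16 CPM per kb. PRIM2 stood lowest at 0.355 CPM per kb. The part of each gene that was counted is not known, so this order depends on the RefSeq span used.

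Promoter sequences were read for what the list shares. RefSeq promoter windows of GRCh38.p14, 300 bases long with 250 before the gene start and 50 from it onward, were at hand for 44 of the 52 genes. These 44 members had 57 windows, since 10 of them had more than 1. A gene was scored as holding a motif if any of its windows did, and windows per gene were not compared with those of other genes. An E2F-type element (TTTCCCGC, TTTGGCGC, TTTCGCGC or TTTGCCGC, on either strand) was present in 24 of 44 members (54.5%), against 3.99% of 27305 genes with a window and 6.13% of the 13723 tested among them. The related form TTCCCGCC shares 7 letters with the first of these and can overlap it. It was present in 13 members (29.5% against 3.79% of all genes and 5.78% of tested genes). One or the other form was present in 29 (65.9% against 6.67% of all and 10.2% of tested genes). CCAAT boxes were present in 26 members (59.1% against 39.7% of all and 42.1% of tested genes). The cell-cycle homology element TTTGAA, typical of later cell-cycle genes, was found in 2 (4.55% against 18.2% of all and 14.7% of tested genes). A full palindromic estrogen response element, GGTCA and TGACC with 3 bases between, was in no window of the 44 members and in 20 of the 27305 genes (0.0732%). Members with an E2F-type element had a median starvation log2 fold change of -0.54 and those without one of -0.47. The latter include members that hold only TTCCCGCC, such as CHAF1A. With either form counted, the medians were -0.53 with and -0.49 without. The median was thus negative with and without an exact match to these letters, and near matches were not searched. A match of letters describes the window and is not a bound site. Windows of members ran from 38.3% GC (PRIM2) to 81% GC (CCNE1). Base composition was not compared with that of other genes, and its part in the motif shares was not tested.

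**Figure D3:**
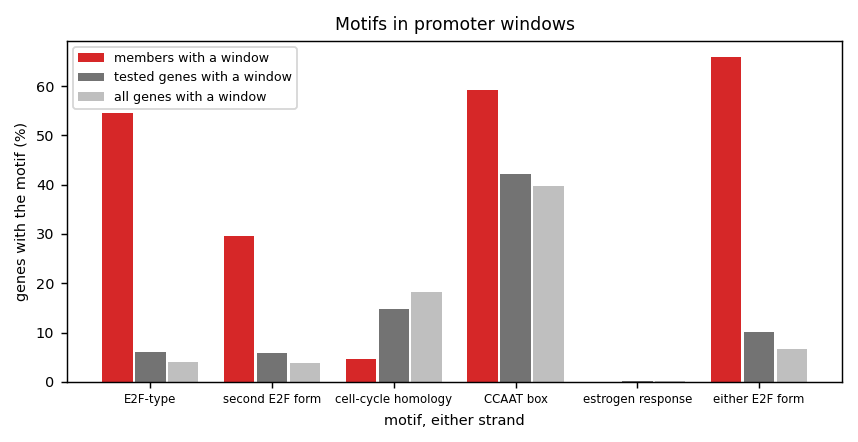
Share of genes (%, y axis) whose 300-base promoter windows hold each motif on either strand (x axis), for the 44 members with a window, the tested genes with a window and all genes with a window. The bar for the E2F-type element reaches 54.5% in members and 6.13% in tested genes, while the bar for the estrogen response element is at 0 in members.

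The 8 windows below are each on the hg38 strand named and written 5′ to 3′ along the gene. CDT1 and DTL are strong fallers with an exact match to an E2F form, and E2F7 is a strong faller without one. MCM6 (-0.52) and E2F1 (-0.46) have matches and fell no further than the list median of -0.52. E2F3 was flat, and GINS2 and SKP2 are the genes called with estradiol, with the limits on both calls given below. Capitals mark an E2F-type element or TTCCCGCC, on either strand, and positions are counted from the gene start.
CDT1 (chr16:88803539-88803838, plus strand): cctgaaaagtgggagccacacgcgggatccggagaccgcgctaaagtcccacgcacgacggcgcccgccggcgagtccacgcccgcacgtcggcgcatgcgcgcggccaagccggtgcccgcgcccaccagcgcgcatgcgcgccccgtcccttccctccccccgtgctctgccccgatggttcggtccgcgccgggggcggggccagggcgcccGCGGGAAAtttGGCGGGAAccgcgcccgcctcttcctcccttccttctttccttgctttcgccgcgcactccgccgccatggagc
DTL (chr1:212035498-212035797, plus strand): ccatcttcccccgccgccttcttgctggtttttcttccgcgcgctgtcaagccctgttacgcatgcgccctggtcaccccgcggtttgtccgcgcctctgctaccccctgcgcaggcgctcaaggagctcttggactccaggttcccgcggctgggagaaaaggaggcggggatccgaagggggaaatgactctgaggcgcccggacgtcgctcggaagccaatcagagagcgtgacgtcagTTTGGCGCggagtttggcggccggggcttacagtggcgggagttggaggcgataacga
MCM6 (chr2:135876394-135876693, minus strand): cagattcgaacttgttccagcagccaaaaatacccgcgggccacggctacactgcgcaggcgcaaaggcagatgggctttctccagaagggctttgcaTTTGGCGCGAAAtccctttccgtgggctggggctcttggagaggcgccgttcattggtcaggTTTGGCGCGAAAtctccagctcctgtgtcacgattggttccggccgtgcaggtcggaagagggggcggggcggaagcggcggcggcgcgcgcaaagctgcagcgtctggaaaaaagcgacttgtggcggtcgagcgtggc
E2F1 (chr20:33686336-33686635, minus strand): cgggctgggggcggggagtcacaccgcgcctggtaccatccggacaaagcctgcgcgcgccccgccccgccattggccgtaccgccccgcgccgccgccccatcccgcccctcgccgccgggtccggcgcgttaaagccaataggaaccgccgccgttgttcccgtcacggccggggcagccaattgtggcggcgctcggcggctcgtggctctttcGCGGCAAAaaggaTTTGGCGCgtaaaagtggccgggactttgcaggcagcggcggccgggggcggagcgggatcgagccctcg
E2F7 (chr12:77065520-77065819, minus strand): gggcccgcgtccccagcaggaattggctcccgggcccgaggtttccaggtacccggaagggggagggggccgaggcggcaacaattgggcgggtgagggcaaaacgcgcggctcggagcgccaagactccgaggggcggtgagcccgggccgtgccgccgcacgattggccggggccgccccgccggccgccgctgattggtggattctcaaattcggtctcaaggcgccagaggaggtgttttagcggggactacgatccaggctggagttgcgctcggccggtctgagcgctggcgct
E2F3 (chr6:20401629-20401928, plus strand): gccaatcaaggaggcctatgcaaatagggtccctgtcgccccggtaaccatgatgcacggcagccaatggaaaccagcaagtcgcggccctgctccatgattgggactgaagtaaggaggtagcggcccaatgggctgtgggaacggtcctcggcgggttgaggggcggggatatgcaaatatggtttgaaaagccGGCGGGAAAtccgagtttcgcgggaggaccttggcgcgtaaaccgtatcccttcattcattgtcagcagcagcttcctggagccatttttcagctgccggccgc
GINS2 (chr16:85688905-85689204, minus strand): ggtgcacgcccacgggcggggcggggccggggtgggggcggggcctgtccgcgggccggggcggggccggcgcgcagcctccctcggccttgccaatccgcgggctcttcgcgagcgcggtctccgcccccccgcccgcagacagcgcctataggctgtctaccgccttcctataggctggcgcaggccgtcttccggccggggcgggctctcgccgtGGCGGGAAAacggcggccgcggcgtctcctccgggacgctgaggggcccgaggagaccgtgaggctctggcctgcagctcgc
SKP2 (chr5:36151861-36152160, plus strand): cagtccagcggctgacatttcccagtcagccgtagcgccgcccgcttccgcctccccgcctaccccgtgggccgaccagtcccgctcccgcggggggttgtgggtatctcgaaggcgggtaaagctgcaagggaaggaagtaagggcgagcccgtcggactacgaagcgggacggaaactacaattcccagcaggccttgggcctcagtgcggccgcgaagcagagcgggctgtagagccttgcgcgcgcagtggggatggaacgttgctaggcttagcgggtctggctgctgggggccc
In CDT1 the matches lie at -35 and -24, in DTL at -8 and in E2F1 at -33 and -20, close upstream of the start. MCM6 has an overlapping pair of matches at -152 and -148 and again at -90 and -86. GINS2 has overlapping matches at -32 and -31. E2F3 has them at -54 and -53 in the window printed, so the flattest gene of the list also holds these letters. A second E2F3 window (chr6:20403364-20403663) has no match, and from which start its counts came is not known. E2F7 and SKP2 have no match, although E2F7 was among the strongest fallers.

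After 1 h of estradiol in starved cells 50 of the 52 genes did not pass the test, 1 rose and 1 fell. Over all tested genes 8.77% were called, 5.04% higher and 3.73% lower. Summed over the list, the genes took 2499 and 2490 of every 1000000 counts after estradiol against 2524 and 2580 before it. The median log2 fold change was 0.03, against -0.01 over all tested genes. At an unadjusted p under 0.05 there were 7 members, where 19.1% of all tested genes passed, and the 95% interval lay within 0.5 of 0 on the log2 scale for 42 of 52. MYC, a rapid estrogen target that promotes entry into S phase, went from 56.8 and 45.2 to 153 and 145 CPM in the same libraries.

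GINS2, a subunit of the replicative helicase, was the gene that rose. It read 34.2 and 34.2 CPM in starved vehicle and 55.5 and 48.5 CPM after estradiol, and in complete medium it lay between 49.2 and 58.8 CPM in all 8 libraries. The increase was 0.61 ± 0.099 on the log2 scale (adjusted p = 0.00021) and held in every alternative that was run. Its span on chromosome 16 overlaps that of GSE1, a far more heavily counted gene with a mean of 11958 counts against 314 for GINS2. GSE1 read 1300 and 1219 CPM in starved vehicle and 2774 and 2313 CPM after estradiol (1.01 ± 0.103, adjusted p = 4.4e-07), and it had fallen in starvation as well (-0.79 ± 0.102, adjusted p = 8.7e-06). Spans that share any base were taken as overlapping, and how much of GINS2 the shared stretch covers was not measured. The sources used here do not say whether counting used strand, so reads of GINS2 and GSE1 within that stretch cannot be told apart.

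SKP2 was the gene that fell, from 52.9 and 53.3 CPM in starved vehicle to 38.0 and 42.8 CPM after estradiol (-0.40 ± 0.108, adjusted p = 0.022). The call was lost without starved vehicle library 3 (-0.40, adjusted p = 0.12), starved vehicle library 4 (-0.39, adjusted p = 0.13) or starved estradiol library 3 (-0.31, adjusted p = 0.27), and DESeq2 gave -0.39 with an adjusted p of 0.12. SKP2 overlaps NADK2, a mitochondrial NAD kinase, which had a log2 fold change of -0.20 ± 0.092 (adjusted p = 0.24). The largest changes that did not pass were those of CCNE1 and MCM2. CCNE1 read 11.2 and 8.43 CPM before and 15.2 and 9.80 CPM after estradiol, with overlapping groups (0.36 ± 0.202, adjusted p = 0.37). MCM2 read 33.4 and 32.1 CPM before and 26.6 and 26.1 CPM after, with no overlap (-0.31 ± 0.100, adjusted p = 0.059). It passed without scaling factors (-0.35, adjusted p = 0.029) and with a filter at a mean of 50 counts (-0.32, adjusted p = 0.030).

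**Figure D4:**
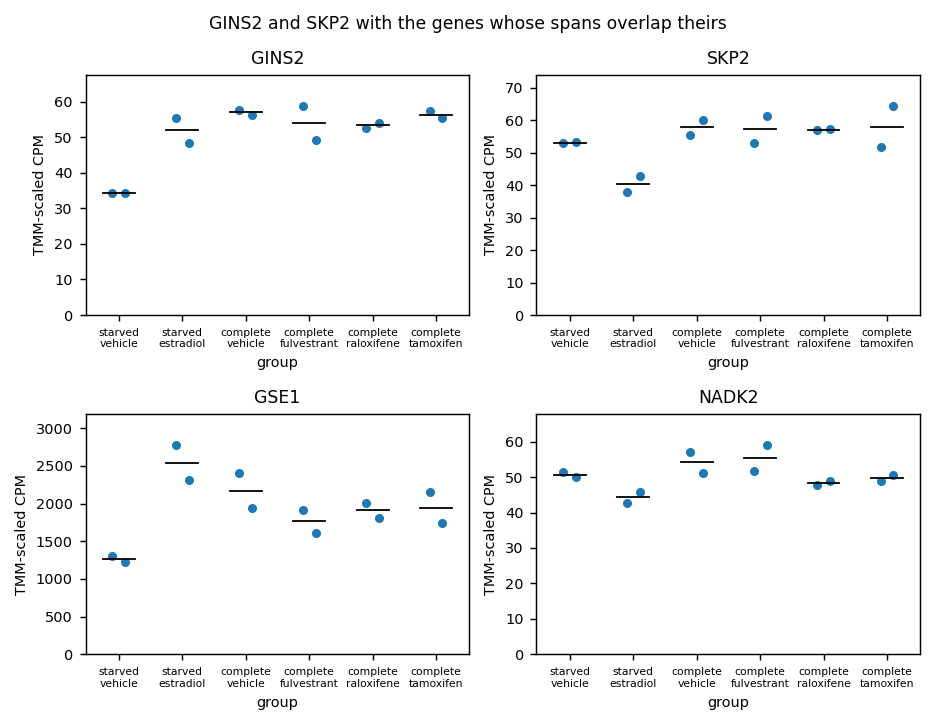
TMM-scaled CPM (y axis, from 0) of GINS2 and SKP2 and of the genes GSE1 and NADK2 that overlap them, in the 6 groups (x axis), with 1 point per library and a line at the mean. GINS2 and GSE1 are both lowest in starved vehicle, at 34.2 and 1219 to 1300 CPM, and SKP2 is lowest after estradiol, at 38.0 and 42.8 CPM.

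In all, 11 of the 52 genes overlap, by any number of bases, another RefSeq gene that holds at least 10% as many counts. They are E2F8, CCNE2, SKP2, ORC1, MCM7, GINS2, GINS4, RFC5, PRIM2, TYMS and CHAF1A. Of the 41 members without such an overlap, 34 fell in starvation and 0 passed the test with estradiol, although MCM2 is one of them and passed under the settings given above. Some partners moved with the member and some did not. NDUFAF6, with a mean of 1658 counts against 308 for the overlapping CCNE2, had a starvation log2 fold change of -0.26 ± 0.053 (adjusted p = 0.0012) beside the -0.32 of CCNE2. CSRP3-AS1, which overlaps E2F8, had -0.60 ± 0.140 (adjusted p = 0.0041), and GPAT4-AS1, which overlaps GINS4, had -0.40 ± 0.135 (adjusted p = 0.046). TYMSOS, an opposite-strand RNA at TYMS, had a starvation log2 fold change of -0.61 ± 0.107 (adjusted p = 0.00027 by edgeR). The more heavily counted TYMS partner ENOSF1, with a mean of 656 counts, had -0.30 ± 0.067 (adjusted p = 0.0030 by edgeR). RAB23, which overlaps PRIM2, had 0.45 ± 0.149 (adjusted p = 0.037 by edgeR) where PRIM2 fell by 0.49. INTS8, NADK2, PRPF38A, AP4M1, WSB2 and UBXN6 did not pass in starvation, with log2 fold changes from -0.44 to 0.28.

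Cells given estradiol for 1 h still stood apart from complete medium. Of the 52 genes, 40 were lower in starved estradiol than in complete vehicle and none was higher, with a median of -0.51, and 8.11% of all tested genes were called lower. This comparison uses the same complete vehicle libraries as the starvation comparison, so their values are given side by side and are not independent. MCM2 was furthest down, at 26.6 and 26.1 CPM against 53.8 and 51.8 CPM (-1.0 ± 0.097, adjusted p = 2.3e-07), where starved vehicle gave -0.69. E2F7 read 60.3 and 64.6 CPM (-0.83 ± 0.077, adjusted p = 1.6e-07), and PRIM1, the catalytic primase subunit, read 26.0 and 20.5 CPM against 39.1 and 45.0 CPM (-0.83 ± 0.124, adjusted p = 5.6e-05). The 12 smallest adjusted p of the list also included DTL (-0.76), MCM3 (-0.74), CDC45 (-0.71), GINS1 (-0.69), POLE2 (-0.68), RRM2 (-0.63), POLA2 (-0.59), POLA1 (-0.57) and PRIM2 (-0.55). By role, 9 of 10 licensing genes, 7 of 9 of the polymerase set, 5 of 7 of the clamp set, 4 of 6 helicase activators, 4 of 6 chromatin and checkpoint genes, 4 of 5 E2Fs, 4 of 4 nucleotide genes and 3 of 5 of the cyclin E set were lower.

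Of the 44 genes that fell in starvation, 38 were also called lower after estradiol. The 6 that were not are GINS2, MCM7, PCNA, RPA2, CHAF1B and SLBP, whose changes under estradiol itself passed the test only for GINS2. GINS2 after estradiol differed from complete vehicle by -0.13 ± 0.095 (adjusted p = 0.44). MCM7 read 33.7 and 32.7 CPM in starved vehicle, 41.0 and 37.2 CPM after estradiol and 45.4 and 44.1 CPM in complete vehicle. The largest uncalled differences were those of RPA2 (-0.35, adjusted p = 0.058) and FEN1 (-0.32, adjusted p = 0.16). RPA2 passed without scaling factors (-0.37, adjusted p = 0.044) and with the filter at a mean of 50 counts (-0.35, adjusted p = 0.039). RFC4 and SKP2 were called lower after estradiol without having been called in starvation. For RFC4 the log2 fold changes were -0.39 (adjusted p = 0.0069 by edgeR) after estradiol and -0.26 (adjusted p = 0.058 by edgeR) in starvation. Its change under estradiol itself, -0.13 (adjusted p = 0.52 by edgeR), did not pass. CCNE1, CDK2, E2F3 and GINS3 passed the test in none of the comparisons made.

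In complete medium, no gene of the list passed the test after 1 h of an estrogen receptor antagonist. Fulvestrant is a steroid antagonist derived from estradiol with a long side chain, and it marks the receptor for degradation. Raloxifene, a benzothiophene, and tamoxifen, a triphenylethylene, are selective modulators without the steroid core. The summed share of the 52 genes was 3556 and 3542 per 1000000 counts with fulvestrant, 3411 and 3416 with raloxifene and 3440 and 3496 with tamoxifen, against 3536 and 3554 in complete vehicle. The 2 raloxifene libraries and the 2 tamoxifen libraries thus lay below both vehicle libraries in this sum, and fulvestrant overlapped them.

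Gene by gene, edgeR's quasi-likelihood test called 0 of 52 with fulvestrant, where 1.16% of all tested genes were called, 0 with raloxifene (0.569% of all) and 0 with tamoxifen (0.0513% of all). DESeq2 also called 0 in each. With all 3 drugs the background was so low that 0 of 52 says little about the members. At an unadjusted p under 0.05 there were 1, 4 and 7 members respectively, where 7.50%, 9.78% and 6.55% of all tested genes passed. The median log2 fold change was -0.02 with fulvestrant, -0.07 with raloxifene and -0.03 with tamoxifen. The 95% intervals lay within 0.5 of 0 for 45, 47 and 45 members, so falls as large as the median one in starvation lie outside most of them. With raloxifene, both libraries lay below both vehicle libraries for 22 members and above for 3, where 18.9% and 18.7% of all tested genes did so. With tamoxifen the counts were 16 below and 7 above, against 17.4% and 16.9% of all tested genes. With fulvestrant they were 11 and 9, against 18.0% and 19.2%.

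GINS4, of the GINS complex, was among the 2 largest changes for each drug. It read 32.7 and 32.6 CPM in complete vehicle, 26.8 and 28.1 CPM with fulvestrant, 26.9 and 24.3 CPM with raloxifene and 24.3 and 28.9 CPM with tamoxifen. Every treated library lay below both vehicle libraries, which all 3 comparisons share. The log2 fold changes were -0.25 ± 0.113 (adjusted p = 0.61), -0.33 ± 0.115 (adjusted p = 0.31) and -0.31 ± 0.111 (adjusted p = 0.65). The other leading changes were CDK2 with fulvestrant (-0.29 ± 0.160, adjusted p = 0.78), CCNE1 with raloxifene (-0.30, adjusted p = 0.70) and POLD1 with tamoxifen (0.31 ± 0.142, adjusted p = 0.75).

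The drugs were compared with each other in 3 pairs at their shared 100 nM and 1 h, with p-values adjusted over all genes within each pair. Between raloxifene and fulvestrant 0 of 52 passed by edgeR and by DESeq2, where 0.103% of all tested genes were called. Between tamoxifen and fulvestrant it was also 0 by both tools (0.462% of all by edgeR), and between tamoxifen and raloxifene 0 by both (0.00428%). At an unadjusted p under 0.05 there were 1, 2 and 0 members in the 3 pairs, where 4.90%, 5.08% and 4.54% of all tested genes passed. The 95% interval of the difference lay within 0.5 of 0 on the log2 scale for 51, 48 and 49 members respectively, and over all members it ran from -0.84 to 0.48 for raloxifene less fulvestrant, from -0.68 to 0.60 for tamoxifen less fulvestrant and from -0.40 to 0.58 for tamoxifen less raloxifene. The largest estimates were CCNE1 at -0.40 and MCM5 at -0.25 in the first pair, CDT1 at 0.33 ± 0.127 (adjusted p = 0.77) and CCNE1 at -0.27 in the second, and POLD1 at 0.23 and MCM5 at 0.17 in the third. With so few genes called over the whole table, 0 of 52 says little about these members, and it does not show that the steroid and the nonsteroidal ligands act alike on them.

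**Figure D5:**
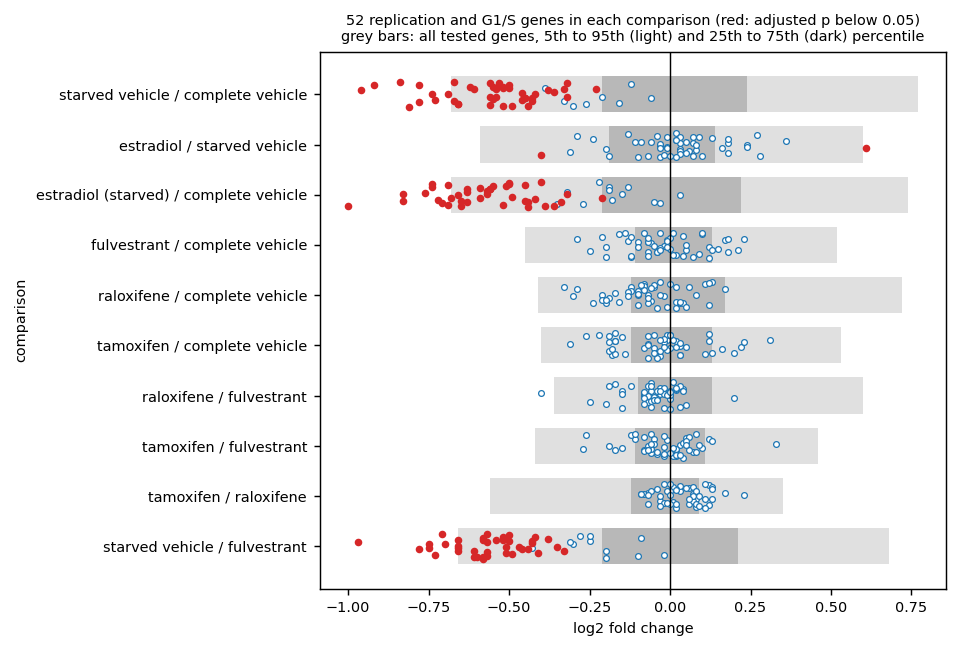
Log2 fold change (x axis) of the 52 genes (points, red where the adjusted p is below 0.05) in each of the 10 comparisons (y axis), over bars for the 5th to 95th (light) and 25th to 75th (dark) percentile of all tested genes. The 3 comparisons of starved with complete-medium libraries have medians of -0.52, -0.51 and -0.51 and 44, 40 and 41 red points, and the 6 comparisons among complete-medium libraries have none.

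Starved vehicle was also set directly against fulvestrant, which tests the difference between the starvation and the fulvestrant effect, since both are taken against complete vehicle. All 52 log2 fold changes were negative, with a median of -0.51, and 41 genes were called lower where 8.08% of all tested genes were. Of these, 39 were also called lower against complete vehicle. MCM5 differed most, at 22.1 and 20.5 CPM in starved vehicle against 39.8 and 43.6 CPM with fulvestrant (-0.97 ± 0.115, adjusted p = 4.0e-06). RRM2 read 164 and 172 CPM against 252 and 250 CPM (-0.58 ± 0.058, adjusted p = 4.3e-07), and DTL 87.7 and 87.9 CPM against 145 and 147 CPM (-0.73, adjusted p = 4.4e-07). The 12 smallest adjusted p of the list also included GMNN (-0.75), CDC45 (-0.71), E2F7 (-0.70), MCM2 (-0.66), GINS2 (-0.66), MCM10 (-0.58), MCM4 (-0.57), POLA1 (-0.50) and POLA2 (-0.49). The 2 arms differ in both the length and the kind of hormone deprivation, 3 days without hormones against 1 h of antagonist, and those cannot be told apart here. CCNE1 (-0.43, adjusted p = 0.16) and RPA2 (-0.31, adjusted p = 0.093) were the largest differences that did not pass.

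A wider list of 65 replication and G1/S genes outside the 52, of which 64 were tested, was read in the same fits. In starvation 39 of 64 fell and none rose, with a median of -0.37, where 9.67% of all tested genes were called lower. The genes named are those with the smallest adjusted p. BARD1, the partner of BRCA1 in its ubiquitin ligase, went from 145 ± 0.940 CPM to 81.7 ± 0.244 CPM (SD, n = 2; log2 fold change -0.82 ± 0.086, adjusted p = 5.2e-07 by edgeR). BRCA1 (-0.59), WDHD1 (-0.66), which couples the helicase to the priming polymerase, and the histone chaperone ASF1B (-0.73) followed. Those 39 included 10 of 12 further licensing and firing genes and 17 of 20 chromatin, repair and S-phase control genes, but 6 of 18 further fork genes and 3 of 8 pocket proteins and other E2F or DP factors. With estradiol 2 of 64 rose and none fell, a share no higher than the 5.04% of all tested genes called higher. E2F6, a repressive E2F that acts without pocket proteins, rose 1.49-fold from 33.5 ± 0.566 CPM (SD, n = 2; 0.58 ± 0.091 on the log2 scale, adjusted p = 0.00016 by edgeR). CTPS1, which makes CTP, changed by 0.45 ± 0.111 (adjusted p = 0.012), a call lost without starved vehicle library 3 (0.33, adjusted p = 0.22), starved estradiol library 3 (0.45, adjusted p = 0.082) or starved estradiol library 4 (0.44, adjusted p = 0.075). After estradiol 38 of 64 were lower than in complete medium, where 8.11% of all tested genes were. The smallest adjusted p belonged to HELLS (-0.52), RBL1 (-0.65), BRCA1 (-0.55) and WDHD1 (-0.69), and the count was 25 when complete vehicle library 4 was left out. By edgeR and by DESeq2, no gene of the wider list was called with any of the 3 drugs, with 3, 7 and 3 at an unadjusted p under 0.05 for fulvestrant, raloxifene and tamoxifen, where 7.50%, 9.78% and 6.55% of all tested genes passed. In starved vehicle 34 of 64 were lower than with fulvestrant, where 8.08% of all tested genes were.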

How the data were processed

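PRO-seq was measured in 12 libraries of T47D cells, 2 in each of 6 groups assigned by their labels. The library numbers are those of the labels' descriptions (3 and 4), while the titles number the same libraries 1 and 2. Starvation is read from the descriptions and the series text, since the labels' protocol describes the complete medium only. The authors deposited 1 table of unnormalized counts, in whole numbers, by Ensembl ID. The submitters' processing notes name Bowtie2 2.4.4, SAMtools 1.9, cutadapt 1.8.1 and build hg38. How genes were counted (tool, annotation, strand, part of the gene) was, in the sources used here, not given, so overlapping and antisense genes are uncertain.

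Symbols came from a reference list for 60463 of 60605 IDs, and the 142 others held 0.281% of counts. Leaving out 1195 IDs that shared a symbol with a stronger one (0.0741% of counts) kept 59410 genes. In R 4.3.3, edgeR 4.0.16 with limma 3.58.1 was used for filterByExpr, TMM scaling and a quasi-likelihood fit of all 12 libraries on group, with Benjamini-Hochberg adjustment over 23375 genes at 0.05 in each of 10 comparisons. Levels are TMM-scaled counts per 1000000 (CPM), fold changes log2 with the standard error of the fit. These are relative to each library's total, so a change in all transcription together would not show. Within each group, a chi-square per gene over genes with at least 20 counts ran from 1.2 to 2.34, above the 1 of counting noise, so no library was counted as a duplicate. Scripts were tested on simulated data, in which 91% of 2-fold changes and 24% of 1.41-fold changes were recovered. The spread in that simulation was set and not taken from these libraries. A gene that did not pass the test may therefore still have changed.

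Members and gene lists were chosen with earlier results of these data known. In starvation up to 3 members of each role by smallest adjusted p are given in full, elsewhere up to 12 called members and the 2 largest uncalled, and of the wider list up to 4 in each direction. CDT1, MYC, GSE1, NADK2, MCM7, TYMSOS, RAB23, NDUFAF6, CSRP3-AS1 and GPAT4-AS1 were added after their values were seen. So were the overlapping genes ENOSF1, INTS8, PRPF38A, AP4M1, WSB2 and UBXN6, and the members whose calls changed when a library was left out. Alternatives were RLE factors or none, DESeq2 1.42.0, no filter (genes with at least 1 count), a mean of at least 50 counts, only the 4 libraries compared, a replicate block, and leaving out each library. Promoter windows and gene spans are RefSeq's for GRCh38.p14, matched by symbol.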

Additional observations from a re-analysis of the deposited data

How the results depend on the processing

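All called log2 fold changes of the 52 genes kept their sign in every alternative run. Calls held in all alternatives for 29 of 44 genes in starvation, 24 of 40 after estradiol against complete vehicle, 28 of 41 against fulvestrant and 1 of 2 with estradiol. In starvation the count was 36 with DESeq2, 46 with the 4 libraries alone and 33 to 44 with 1 library left out, lowest without complete vehicle library 3. Against complete vehicle after estradiol it was 28 to 41, and against fulvestrant 33 to 42, with 1 library left out. For estradiol the count of 2 became 1 with DESeq2, 4 without scaling factors, and 1 to 2 with 1 library left out. The drug comparisons gave 0 in every alternative. Of the wider list, estradiol called 1 with DESeq2 and 4 with the replicate block in place of 2, and raloxifene called 1 in place of 0 with no filter, with the block and without raloxifene library 4. Among genes not called, CCNE1 with estradiol ranged from -0.00 (without starved estradiol library 3) to 0.62 (without starved estradiol library 4), and the overlapping NADK2 in starvation from -0.16 to 0.00 (without complete vehicle library 3). MCM2 with estradiol passed with no scaling factors (adjusted p = 0.029), with the stricter filter (0.030) and with the replicate block (0.036). A group left with 1 library was assumed to vary like the other groups.

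The labels do not say that libraries of the same number share a batch or day. Their deviations from the group means correlated at 0.0990 to 0.423 over 15 pairs of groups (14629 genes), 14 of them over 0.1. This is a hint of an effect shared by number. With 2 numbers in all and no label behind them, they were not taken as pairs, and the block is an alternative only. With the replicate block the estradiol count of 2 became 4, the only count of members to move by more than 1.5 times. The starvation count of 44 became 46, and the count of starved vehicle against fulvestrant went from 41 to 46.

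The median 95% interval of a member reached 0.20 to 0.21 on either side of its log2 fold change. Depth, the spread between libraries and the 2 libraries per group all enter it, and their shares were not tested.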
